A study of Mus musculus with 20 samples.

Results

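The genes described here take up, store, release and regulate iron or break down haem in mouse microglia, the resident macrophages of the brain. A list of 10 genes fixed by name was looked up on the array: Slc40a1, Tfrc, Slc11a1, Slc11a2, Fth1, Ftl1, Ncoa4, Hmox1, Ireb2 and Aco1. A gene was read through a probe set, a group of array probes for one transcript, whose annotation names that gene and no other. Of the 10 genes, 9 had such a probe set, and all 9 were among the 12728 of 19751 named genes bright enough to be tested. Slc11a1, which moves metal ions out of the phagosomes of macrophages, has no entry in the annotation used and is not analysed here.

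The microglia were sorted by flow cytometry from littermate mice aged 8.5 months after saline perfusion, and 2 ng of RNA per sample was labelled for a one-colour array. The groups were WT (4 arrays), Trem2-/- (4 arrays), 5XFAD (5 arrays) and Trem2-/-5XFAD (6 arrays). Trem2-/- mice lack Trem2, a lipid-binding surface receptor of microglia, and 5XFAD mice express mutant human amyloid precursor and presenilin genes in neurons from the Thy1 promoter, so that amyloid plaques form. In Trem2-/-5XFAD mice both changes are combined, and WT mice have neither. One further array has a WT title and a Trem2-/- genotype label and was placed in no group. Nothing in the labels says whether an array is 1 animal or a pool, so a p-value here reflects array-to-array spread, which may be technical.

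Cells bring in transferrin-bound iron through the transferrin receptor and move it from the endosome to the cytosol through Slc11a2. Iron that is not used is caged in ferritin, a shell of heavy (Fth1) and light (Ftl1) chains, or leaves through ferroportin, the exporter encoded by Slc40a1. Macrophages also gain iron when haem oxygenase, the product of Hmox1, opens the haem of engulfed cells, and iron regulatory proteins (Aco1 and Ireb2) adjust the messages of many of these genes to the iron supply. In brain macrophages this balance is known for its changes with age and around amyloid plaques.

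All values are log2(intensity + 1) of the deposited array intensities, group values are mean ± SD, and a difference is the first group minus the second ± its standard error. A gene was called when its limma adjusted p, corrected over all 12728 genes, was under 0.05. Levels are compared between groups for 1 probe set and never between genes.

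Trem2 itself followed the labels, at 11.31 ± 0.12 in WT (n = 4) and 11.68 ± 0.14 in 5XFAD (n = 5) against 6.96 ± 0.08 in Trem2-/- (n = 4) and 7.05 ± 0.29 in Trem2-/-5XFAD (n = 6). Median array intensities lay between 25.7 and 28.6. Of 11 listed microglial markers, 10 were measured, and their mean log2 value was 10.92 to 11.64 on every assigned array. None of the measured markers of any cell type was at 0. Some still averaged below the limit for testing (4.16 to 4.34 depending on the array), such as the erythroid marker Rhag at 2.29 to 2.52 in the 4 groups. A value above 0 is therefore no sign that a cell type was present. Salivary gland markers averaged 5.01 to 5.45 in WT 1, WT 2, 5XFAD 1 and 5XFAD 2, so results are also given without those 4 arrays. The other arrays were not free of them, at 4.51 in Trem2-/- 3, 3.87 in WT 4, 3.83 in Trem2-/- 2 and less on the rest, and these arrays stay in that setting. Sex is not in the labels, but Xist exceeded the Y-linked genes in 3 of 4 WT, 3 of 4 Trem2-/-, 1 of 5 5XFAD and 0 of 6 Trem2-/-5XFAD arrays. This signal thus ran largely along the 5XFAD genotype. In 5XFAD vs WT and in Trem2-/-5XFAD vs Trem2-/-, sex and amyloid are partly confounded. A fit with the sex signal as a covariate can separate them only in part.

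In 5XFAD microglia the exporter Slc40a1 fell, the endosomal transporter Slc11a2 rose and the ferritin cargo receptor Ncoa4 fell, while the other 6 genes did not pass the test. Of these calls, that of Slc40a1 held in every setting. Those of Slc11a2 and Ncoa4 were lost with the sex signal as a covariate, and also without 5XFAD 4. In 5XFAD mice without Trem2, Slc40a1 was higher than in 5XFAD mice with it. In mice without amyloid, loss of Trem2 went with a higher level of Hmox1. That call was lost in several other settings and with several single arrays left out, as given below. A test of any difference among the 4 groups (limma F test) called 4 of the 9 genes, with adjusted p of 1.57e-05 for Slc40a1, 0.0074 for Hmox1, 0.0168 for Slc11a2 and 0.0494 for Ncoa4, against 17.5% of all genes tested.

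**Figure D1:**
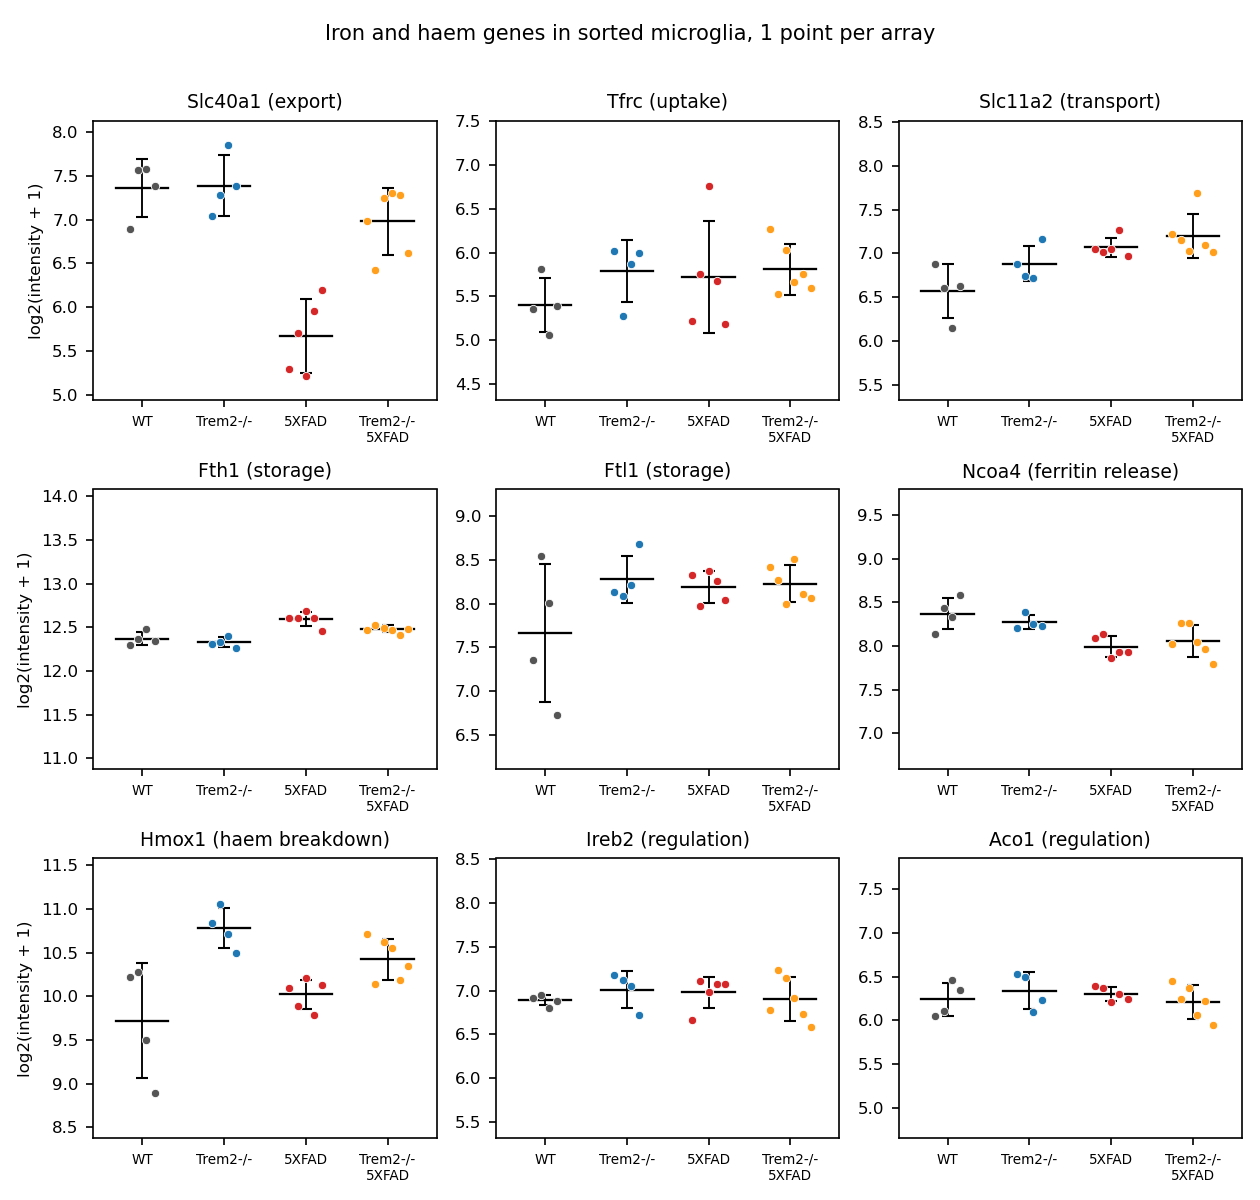
Each panel plots log2(intensity + 1) of 1 gene on the vertical axis, 1 point per array in the 4 genotype groups, with the mean as a line and the SD as a bar; every panel spans the same number of log2 units. The 5XFAD arrays of Slc40a1 sit between 5.21 and 6.20, below all arrays of the other groups, and the Trem2-/- arrays of Hmox1 sit between 10.50 and 11.06, above all WT arrays.

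The comparison of 5XFAD with WT asks how the genes respond to amyloid when Trem2 is present. It called 3 of the 9 genes, 1 higher and 2 lower, against 15.0% of all genes tested (8.23% higher and 6.77% lower). The median difference of the 9 genes was 0.22, and that of all tested genes was -0.02.

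Slc40a1, the ferroportin gene, read 6.89, 7.57, 7.58 and 7.39 on the 4 WT arrays. The 5XFAD arrays read 5.29, 5.71, 5.21, 5.96 and 6.20. Every 5XFAD array was below every WT array. The group means were 7.36 ± 0.33 (n = 4) and 5.67 ± 0.42 (n = 5), a difference of -1.68 ± 0.23, or 3.21-fold lower (95% interval -2.16 to -1.21, limma adjusted p = 1.86e-05). In size this difference stood at percentile 98.9 of all tested genes. In RNA from sorted bulk cells, fewer cells that express a gene and less RNA of it per cell cannot be told apart.

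Slc11a2, which carries ferrous iron across the endosomal membrane, read 6.88, 6.61, 6.15 and 6.63 in WT. The 5XFAD arrays read 7.05, 7.02, 7.05, 7.27 and 6.97, all above the highest WT array. The means were 6.57 ± 0.31 (n = 4) and 7.07 ± 0.11 (n = 5), and Slc11a2 rose by 0.51 ± 0.15, or 1.42-fold (limma adjusted p = 0.0242). The call was lost with the sex signal as a covariate (0.42, limma adjusted p = 0.115), with the border macrophage markers as a covariate (0.48, limma adjusted p = 0.12), without WT 3 (0.37, limma adjusted p = 0.115) and without 5XFAD 4 (0.46, limma adjusted p = 0.0619).

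Ncoa4, which hands ferritin to the lysosome so that its iron is released, read 8.14, 8.43, 8.33 and 8.58 in WT. The 5XFAD arrays read 8.09, 8.14, 7.86, 7.93 and 7.93, so the ranges met at 8.14 after rounding. The means were 8.37 ± 0.18 (n = 4) and 7.99 ± 0.12 (n = 5), and Ncoa4 fell by 0.38 ± 0.11 on the log2 scale, 1.30-fold (limma adjusted p = 0.0236). The call was lost with the sex signal (-0.36, limma adjusted p = 0.0761) or the border macrophage markers (-0.43, limma adjusted p = 0.0571) as a covariate, and in a model of the 2 groups alone (-0.38, limma adjusted p = 0.069). It was also lost without WT 2, WT 4, 5XFAD 3 or 5XFAD 4, with limma adjusted p between 0.0509 and 0.0888. A second probe set that names Ncoa4, whose numbered neighbours name genes on chromosome 12 in 29 of 30 cases and not on chromosome 14 where Ncoa4 lies, gave -0.69 ± 0.28 (limma adjusted p = 0.114).

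Fth1, the ferritin chain that oxidises iron as it enters the shell, read 12.30, 12.36, 12.48 and 12.34 in WT. The 5XFAD arrays read 12.60, 12.60, 12.69, 12.61 and 12.46, with 5XFAD 5 below WT 3 and the other 4 above all WT arrays. The difference of 0.22 ± 0.08 missed the threshold (limma adjusted p = 0.0705). It passed with a pseudocount of 16 (0.22, limma adjusted p = 0.0237) and without 5XFAD 5 (0.25, limma adjusted p = 0.0484). Its spread within groups was small, with an SD of 0.04 to 0.08 in the 4 groups.

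Ftl1 varied most within WT, where the 4 arrays read 7.36, 8.55, 8.01 and 6.73. The 5XFAD arrays read 8.33, 7.97, 8.37, 8.26 and 8.04, inside the WT range. The difference was 0.53 ± 0.24 (limma adjusted p = 0.158), and with 1 array left out it ranged from 0.22 without WT 4 (limma adjusted p = 0.534) to 0.83 without WT 2 (limma adjusted p = 0.0101), the one array whose loss gave a call. Of 23 numbered neighbours of this probe set that could be placed, 21 name genes on chromosome 17 and 1 names a gene on chromosome 7, where Ftl1 lies. Its values are given under the name Ftl1 as annotated, and which place in the genome it reads was not tested. Another probe set, which names Ftl1 together with the microRNA genes Mir692-2 and Mir692-3 and whose 27 placed neighbours are all on chromosome 7, read 12.32 ± 0.12 in WT and 12.41 ± 0.06 in 5XFAD, a difference of 0.09 ± 0.09 (limma adjusted p = 0.567). Neither probe set gave a called change, and the WT spread was an SD of 0.79 on the first and 0.12 on the second.

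The remaining genes did not pass the test. Hmox1 was 9.72 ± 0.66 in WT (n = 4) and 10.02 ± 0.17 in 5XFAD (n = 5), a difference of 0.30 ± 0.22 (limma adjusted p = 0.415). It was 0.15 with the array of conflicting labels put in WT (limma adjusted p = 0.733) and 0.02 without WT 4 (limma adjusted p = 0.96). Without the 4 arrays highest in salivary gland markers this difference was 0.84 (limma adjusted p = 0.0173), and with border macrophage markers as a covariate it was 0.75 (limma adjusted p = 0.0238). The former setting takes away the higher Hmox1 values of WT (10.22 and 10.28) and keeps the lower ones (9.50 and 8.89). Tfrc, the transferrin receptor, was 5.40 ± 0.31 in WT and 5.72 ± 0.64 in 5XFAD, where 5XFAD 3 read 6.76 and the others at most 5.75 (0.31 ± 0.25, limma adjusted p = 0.475). Ireb2 and Aco1, the iron regulatory proteins that bind iron-responsive hairpins in messenger RNA, differed by 0.09 ± 0.13 and 0.06 ± 0.12 (limma adjusted p = 0.72 and 0.822). The 95% intervals, -0.19 to 0.37 for Ireb2 and -0.20 to 0.31 for Aco1, bound the change these arrays allow for each.

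**Figure D2:**
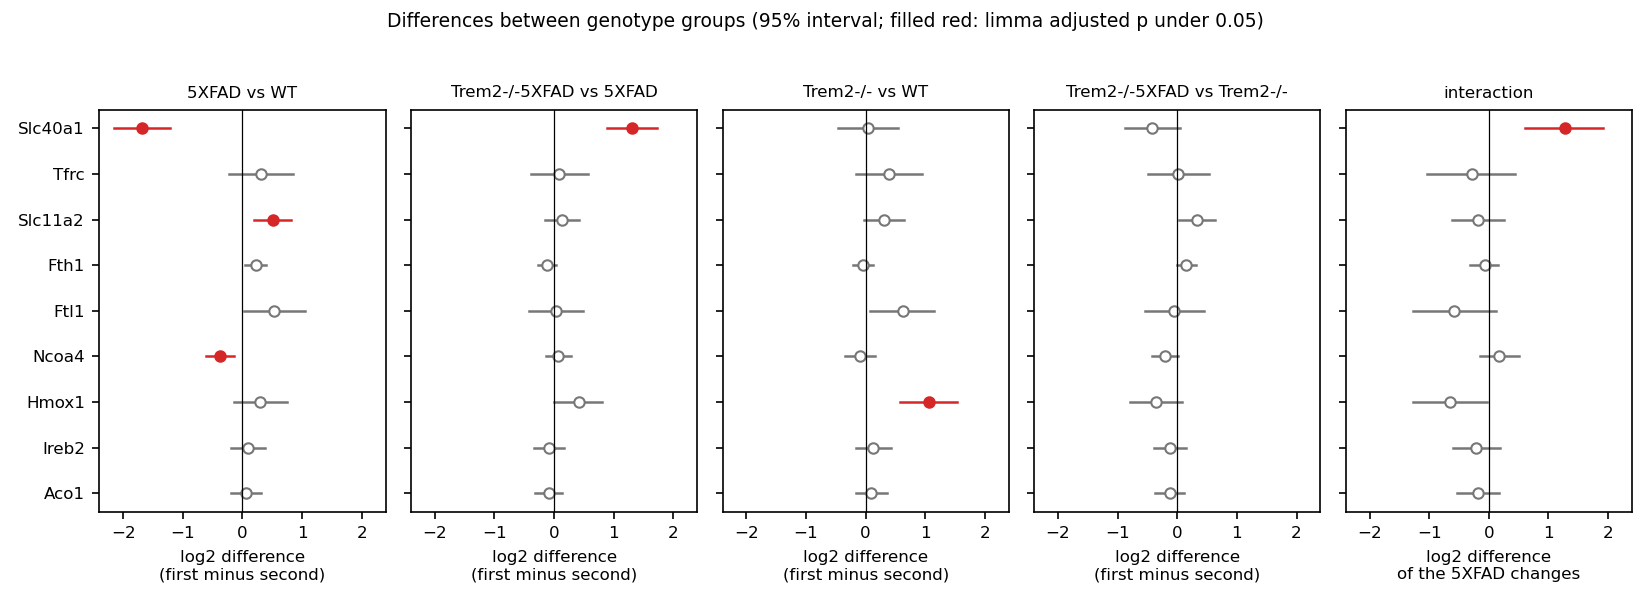
Log2 differences (horizontal axis) of the 9 genes in 4 pairwise comparisons and the interaction, with points as estimates and lines as 95% intervals; filled red points have a limma adjusted p under 0.05. Slc40a1 lies at -1.68 in 5XFAD vs WT and at 1.30 in Trem2-/-5XFAD vs 5XFAD, and no gene is red in Trem2-/-5XFAD vs Trem2-/-.

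The comparison of Trem2-/-5XFAD with 5XFAD asks what loss of Trem2 does once amyloid is present. It called 1 of the 9 genes, Slc40a1, higher, against 7.68% of all genes tested (3.21% higher and 4.46% lower). This comparison shares its 5XFAD arrays with the one above, so low values of Slc40a1 on those arrays enter both. The 6 Trem2-/-5XFAD arrays ran from 6.43 to 7.31 with a median of 7.12, all above the highest 5XFAD array at 6.20. The mean was 6.98 ± 0.38 (n = 6), which was 1.30 ± 0.21 or 2.47-fold higher than in 5XFAD (95% interval 0.88 to 1.73, limma adjusted p = 0.000248).

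Among the 8 other genes the differences between Trem2-/-5XFAD and 5XFAD ran from -0.12 (Fth1) to 0.41 (Hmox1). Hmox1 was 10.42 ± 0.24 in Trem2-/-5XFAD (n = 6), with 10.14 as the lowest, 10.44 as the median and 10.71 as the highest value, and overlapped the 5XFAD arrays, which reached 10.21 (0.41 ± 0.19, limma adjusted p = 0.249). With the border macrophage markers as a covariate this difference turned to -0.17 (limma adjusted p = 0.776). Slc11a2 and Ncoa4, both called in 5XFAD vs WT, differed here by 0.13 ± 0.14 and 0.07 ± 0.10 (limma adjusted p = 0.65 and 0.76). The 95% intervals were -0.15 to 0.41 for Slc11a2 and -0.14 to 0.28 for Ncoa4.

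The comparison of Trem2-/- with WT, in mice without amyloid, called 1 of the 9 genes, Hmox1, higher. The share among all genes tested was 0.613% (0.385% higher and 0.228% lower). Hmox1 read 10.22, 10.28, 9.50 and 8.89 in WT and 10.84, 11.06, 10.71 and 10.50 in Trem2-/-. The groups did not overlap, although WT 3 and WT 4 lay below the other WT arrays. The mean rose from 9.72 ± 0.66 (n = 4) to 10.78 ± 0.23 (n = 4), by 1.06 ± 0.23 or 2.08-fold (limma adjusted p = 0.0348). The call did not hold in a model of these 2 groups alone (limma adjusted p = 0.315), with the array of conflicting labels put in WT (0.91, limma adjusted p = 0.15), or without any one of WT 3, WT 4, Trem2-/- 1, Trem2-/- 2 and Trem2-/- 3 (0.78 to 1.08, highest limma adjusted p = 0.111). Without WT 4, the lowest array, the difference was 0.78 (limma adjusted p = 0.0766). With the border macrophage or neutrophil markers as a covariate it was 0.60 or 0.93 (limma adjusted p = 0.37 and 0.167). In the setting without WT 1, WT 2, 5XFAD 1 and 5XFAD 2, which takes away the higher Hmox1 values of WT, it was 1.58 (limma adjusted p = 0.000291).

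Slc40a1 in Trem2-/- read 7.04, 7.28, 7.86 and 7.39, within and around the WT values, and differed from WT by 0.04 ± 0.24 (95% interval -0.46 to 0.54, limma adjusted p = 0.974). Ftl1 differed by 0.62 ± 0.26 (limma adjusted p = 0.323) on the probe set that names it alone and by 0.18 ± 0.09 (limma adjusted p = 0.446) on the one with neighbours on chromosome 7. With 1 array left out the former ranged from 0.30 without WT 4 (limma adjusted p = 0.581) to 0.91 without WT 2, where it was called (limma adjusted p = 0.0452). Tfrc differed by 0.39 ± 0.27 and Slc11a2 by 0.31 ± 0.16 (limma adjusted p = 0.601 and 0.438). Fth1, Ireb2, Aco1 and Ncoa4 differed by -0.10 to 0.13.

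The comparison of Trem2-/-5XFAD with Trem2-/- gives the response to amyloid in mice that lack Trem2. It called 0 of the 9 genes with limma, against 2.18% of all genes tested (1.63% higher and 0.558% lower). At an unadjusted limma p under 0.05, 1 gene passed, Slc11a2 (0.33 ± 0.14, limma adjusted p = 0.304). Slc40a1 differed by -0.42 ± 0.22 (95% interval -0.87 to 0.04, limma adjusted p = 0.398), with Trem2-/- arrays from 7.04 to 7.86 and Trem2-/-5XFAD arrays from 6.43 to 7.31. For Fth1 the groups did not overlap, at 12.26 to 12.40 in Trem2-/- and 12.41 to 12.53 in Trem2-/-5XFAD, yet the difference of 0.15 ± 0.08 missed the threshold (limma adjusted p = 0.397).

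Whether the response to amyloid itself differed with Trem2 was tested by the interaction, the 5XFAD change in Trem2-/- mice minus the 5XFAD change in mice with Trem2. It called 1 of the 9 genes, Slc40a1, against 2.60% of all genes tested (1.02% higher and 1.58% lower). The Slc40a1 change was -1.68 with Trem2 and -0.42 without it, and the 2 changes differed by 1.27 ± 0.32 (95% interval 0.61 to 1.92, limma adjusted p = 0.0342). This call sat near the threshold, since leaving out 1 array lost it for 12 of the 19 arrays, with differences of 1.15 to 1.27 and limma adjusted p up to 0.0804. It was also lost without the 4 arrays highest in salivary gland markers (1.28, limma adjusted p = 0.0819). In that same setting Hmox1 was called instead (-1.20, limma adjusted p = 0.0191), against -0.65 ± 0.30 (limma adjusted p = 0.322) with all arrays. WT is then only WT 3 and WT 4, the arrays lowest in Hmox1 (9.50 and 8.89).

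Ordered by mean, Slc40a1 ran from 5.67 in 5XFAD through 6.98 in Trem2-/-5XFAD and 7.36 in WT to 7.39 in Trem2-/-. The step from 5XFAD to Trem2-/-5XFAD exceeded the spread, the difference between WT and Trem2-/- did not pass the test, and Trem2-/-5XFAD was not tested against WT. For Hmox1 the order was 9.72 in WT, 10.02 in 5XFAD, 10.42 in Trem2-/-5XFAD and 10.78 in Trem2-/-, and no pair of neighbours in that order passed the test, while its 2 ends did. For Slc11a2 the order was WT (6.57), Trem2-/- (6.88 ± 0.20), 5XFAD (7.07) and Trem2-/-5XFAD (7.20 ± 0.25). Ncoa4 ran from 7.99 in 5XFAD through 8.06 ± 0.18 in Trem2-/-5XFAD and 8.27 ± 0.08 in Trem2-/- to 8.37 in WT.

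Markers of other cells moved with some of these genes. Border macrophages, which line the vessels and meninges and are known for the haemoglobin scavenger Cd163 and for Hmox1, can pass a microglial sort. All 14 of their 14 listed markers were measured, with summed intensities of 1680 to 2760 in WT, 1900 to 3470 in Trem2-/-, 1100 to 2060 in 5XFAD and 1790 to 2920 in Trem2-/-5XFAD. Of the 14, 5 were lower and 1 higher in 5XFAD vs WT (42.9% against 15.0% of all genes), and 10 were higher in Trem2-/-5XFAD vs 5XFAD (71.4% against 7.68%). In Trem2-/- vs WT, where Hmox1 was called, 1 was higher (7.14% against 0.613%) and their median difference was 0.68. With their mean as a covariate, Slc40a1 still differed by -1.63 in 5XFAD vs WT (limma adjusted p = 0.000661) and by 1.24 in Trem2-/-5XFAD vs 5XFAD (limma adjusted p = 0.026).

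Over the 19 assigned arrays, Hmox1 followed the mean of the border macrophage markers with r = 0.70, and with r = 0.68 once each group's mean was removed. For Slc40a1 the same values were 0.69 and 0.08, so its relation to these markers lay between the groups. Slc40a1 followed the microglial markers with r = 0.90, and 0.56 after removing group means. Of the 10 microglial markers measured, 8 fell in 5XFAD vs WT and 5 rose in Trem2-/-5XFAD vs 5XFAD (80% and 50%, against 15.0% and 7.68% of all genes). Their summed intensity was 23500 to 24800 in 5XFAD against 28100 to 34400 in the other groups. C1qa, on the same list, was 12.16 ± 0.09 in WT and 12.14 ± 0.06 in 5XFAD. Fewer microglia and less RNA of these markers per cell cannot be told apart here. Each array gives 1 point for gene and marker alike, so they share library and scaling, and the part of these other cells in the results was not tested beyond the covariate fits.

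**Figure D3:**
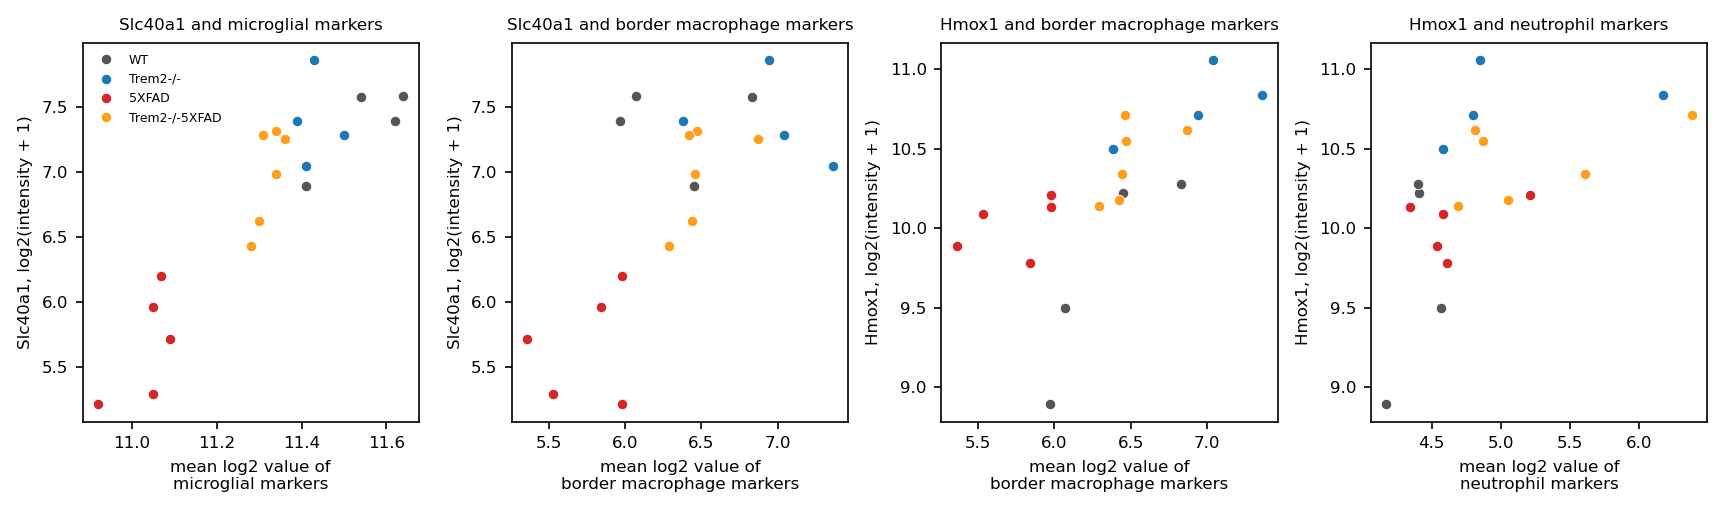
The vertical axis gives log2(intensity + 1) of Slc40a1 or Hmox1 and the horizontal axis the mean log2 value of a marker list, 1 point per assigned array coloured by genotype. Slc40a1 rises with the microglial markers (r = 0.90), and Hmox1 with the border macrophage markers (r = 0.70), also among the arrays of a group.

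Neutrophil markers, all 12 of 12 measured, averaged 6.17 in Trem2-/- 1 and 6.38 in Trem2-/-5XFAD 1 and at most 5.61 elsewhere, with summed intensities of 922 to 1130 in WT and 1130 to 3800 in Trem2-/-. Most of the WT sum was 1 listed marker, Csf3r, whose mean intensity was 822 in WT and 772 in Trem2-/-. Astrocyte markers, all 10 of 10 measured and 8 tested, averaged 5.75 to 5.95 in WT, 5.63 to 5.81 in Trem2-/-, 6.13 to 6.51 in 5XFAD and 5.77 to 6.07 in Trem2-/-5XFAD, while their summed intensities were 4010 to 4400, 3810 to 4650, 2620 to 3610 and 3250 to 3490. Those sums mostly followed 1 listed marker, Glul, whose mean intensity was 3660, 3960, 2540 and 2890 in the same order of groups. In 5XFAD vs WT 2 of the 8 tested astrocyte markers were higher and 2 lower (50% against 15.0% of all genes). In Trem2-/-5XFAD vs 5XFAD 3 were lower (37.5% against 7.68%). The part of astrocytes in the results was not tested. Of 12 listed erythroid markers 5 were measured, with summed intensities between 54.9 and 73.2 on all assigned arrays and 1 bright enough to be tested, which was not called in any comparison.

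By the highest correlation over the 19 assigned arrays, the genes most like Slc40a1 were Siglech (r = 0.959), a surface lectin that marks microglia, then Otulinl and Klf2 (both r = 0.934). For Hmox1 they were Gtf2b (0.915), Arid5a (0.913) and Sertad1 (0.901). Slc11a2 was most like Rel (0.864), Srcap (0.843) and Chd4 (0.842), and Ncoa4 most like Pot1a (0.873), Tlr4 (0.864) and Rp2 (0.858). After removing group means the correlation of Slc40a1 with Siglech was 0.769 and that of Hmox1 with Gtf2b 0.819.

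RefSeq promoter sequences (GRCm38.p6) were at hand for 7 of the 10 genes, Slc40a1, Hmox1 and Slc11a2 not being among them. The 100 bases before the most upstream start were searched on both strands for ACGTG or GCGTG, the core bound by hypoxia-inducible factors, a search chosen after the values of Hif1a, described below, were seen. A match stood in 3 of the 7 windows, while 21.9% of 32851 promoters hold one. Over all 11 starts listed for the 7 genes it stood in 6 windows, the added ones being a further start each of Ncoa4, Tfrc and Fth1. TGACNNNGC and TATAAA were searched as well and each stood in 1 of the 11, at a further start of Ncoa4, against 4.82% and 5.56% of promoters. The matching windows are shown for Ncoa4, which fell in 5XFAD, and for Ftl1 and Tfrc, which were not called. They lie at chr14:32159787-32159886 on the plus strand, chr7:45459887-45459986 on the minus strand and chr16:32608796-32608895 on the plus strand, each printed along the gene's own strand with the match, which reads on the opposite strand, in capitals.
Ncoa4: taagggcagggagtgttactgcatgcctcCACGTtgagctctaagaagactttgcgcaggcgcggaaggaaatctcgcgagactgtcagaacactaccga
Ftl1: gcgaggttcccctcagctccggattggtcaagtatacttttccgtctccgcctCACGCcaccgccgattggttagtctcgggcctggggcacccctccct
Tfrc: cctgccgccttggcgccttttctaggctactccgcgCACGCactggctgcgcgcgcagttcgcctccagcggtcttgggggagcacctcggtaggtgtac
The match lies at bases -71 to -67 before the Ncoa4 start, -47 to -43 before the Ftl1 start and -64 to -60 before the Tfrc start. It describes these letters only, and the 3 genes did not move together.

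The same pathways were also read through a longer list of 111 further iron and haem genes, of which 101 had a probe set and 87 were tested. In 5XFAD vs WT, 14 rose and 4 fell, which is 20.7% of the list against 15.0% of all genes, with a median difference of 0.03. In Trem2-/-5XFAD vs 5XFAD, 3 rose and 6 fell, or 10.3% against 7.68% of all genes. In Trem2-/- vs WT 1 rose (1.15% against 0.613% of all genes), and in Trem2-/-5XFAD vs Trem2-/- 1 rose and 1 fell (2.3% against 2.18%). In the interaction 1 was lower (1.15% against 2.60%). With 1 or 2 genes called, these shares say little about the list. Without the 4 arrays highest in salivary gland markers the counts were 10 higher and 4 lower in 5XFAD vs WT (16.1% against 11.3%), and 2 higher and 1 lower in Trem2-/-5XFAD vs 5XFAD (3.45% against 4.55%). With the border macrophage markers as a covariate the latter comparison gave 0 higher and 3 lower (3.45% against 3.16%).

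Of 10 tested genes of uptake and trafficking, 2 rose and 2 fell in 5XFAD vs WT, 40% against 15.0% of all genes. Slc39a14, a carrier of iron that is not bound to transferrin, rose by 0.82 ± 0.20 (limma adjusted p = 0.007), and Snx3, which sends the transferrin receptor back to the surface, rose by 0.42 ± 0.14 (limma adjusted p = 0.04). Hfe, a partner of the transferrin receptor that is mutated in haemochromatosis, fell by 0.57 ± 0.12 (limma adjusted p = 0.00164). None of the 10 was called in the other comparisons by limma, where 0.613% to 7.68% of all genes were called.

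Of 11 genes of storage and regulation, 2 rose and 1 fell in 5XFAD vs WT, 27.3% against 15.0% of all genes. Hif1a, the oxygen- and iron-sensitive factor whose protein is marked for decay by iron-dependent hydroxylases, was 8.19 ± 0.14 in WT (n = 4), 8.07 ± 0.16 in Trem2-/- (n = 4), 9.70 ± 0.13 in 5XFAD (n = 5) and 8.91 ± 0.09 in Trem2-/-5XFAD (n = 6). It rose by 1.50 ± 0.10 in 5XFAD vs WT (limma adjusted p = 9.87e-10) and by 0.84 ± 0.10 in Trem2-/-5XFAD vs Trem2-/- (limma adjusted p = 1.97e-05). The latter response was smaller by 0.66 ± 0.14 (interaction, limma adjusted p = 0.0119). Pcbp1 and Pcbp2, chaperones that deliver iron to ferritin, went opposite ways in 5XFAD: Pcbp1 changed by -0.37 ± 0.10 and Pcbp2 by 0.28 ± 0.09 (limma adjusted p = 0.0152 and 0.0298).

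Of 11 genes of the export and hepcidin axis, 0 were called in 5XFAD vs WT by limma, against 15.0% of all genes. With so few genes a count of 0 is little below that share. The exporter itself, described above, is not among the 11. Bmp2, a growth factor that raises hepcidin in liver, was higher in Trem2-/-5XFAD than in 5XFAD by 0.91 ± 0.18 (limma adjusted p = 0.00296), at 5.15 ± 0.26 against 4.24 ± 0.31. Bmp2 exceeded the brightness limit of the test, which was 4.16 to 4.34 depending on the array, on 2 of 4 WT and 3 of 5 5XFAD arrays and on all arrays without Trem2. It was thus compared with a group at that limit. With the border macrophage markers as a covariate the difference of Bmp2 was 0.57 and was not called (limma adjusted p = 0.27).

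Of 10 genes of haem synthesis, 2 rose in 5XFAD vs WT (20% against 15.0% of all genes) and 2 fell in Trem2-/-5XFAD vs 5XFAD (20% against 7.68%). These comparisons share the 5XFAD arrays, so both values are given side by side. Tspo, a protein of the outer mitochondrial membrane used as an imaging target for activated microglia, was 7.76 ± 0.20 in WT, 8.95 ± 0.43 in 5XFAD and 8.19 ± 0.11 in Trem2-/-5XFAD (1.19 ± 0.17 and -0.76 ± 0.15, limma adjusted p = 3.56e-05 and 0.00291). Alas1, the first enzyme of haem synthesis, changed by 0.44 ± 0.10 and -0.33 ± 0.09 (limma adjusted p = 0.00383 and 0.0252). Of 13 genes of haem transport and breakdown, 1 was called in 5XFAD vs WT, 7.69% against 15.0% of all genes. It was Slc46a1, a carrier of haem and folate, which fell by 0.74 ± 0.14 (limma adjusted p = 0.00067). Cd163, which is also on the list of border macrophage markers, was higher by 1.17 ± 0.24 in Trem2-/- vs WT and by 0.88 ± 0.20 in Trem2-/-5XFAD vs 5XFAD (limma adjusted p = 0.0261 and 0.00925), and lower by 0.90 on the log2 scale in Trem2-/-5XFAD vs Trem2-/- (limma adjusted p = 0.0316). Its 5XFAD level, 4.31 ± 0.17, was at the brightness limit, exceeded on 3 of 5 arrays. With the border macrophage markers as a covariate the Trem2-/-5XFAD vs 5XFAD difference of Cd163 was 0.10 (limma adjusted p = 0.841). Cd163 is itself part of the mean used as that covariate, so some of this drop is built in and nothing is concluded from it. Cd163 and Hmox1 were thus the genes of the 2 lists called in Trem2-/- vs WT.

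Of 18 genes of mitochondrial iron and iron-sulphur clusters, 3 rose in 5XFAD vs WT, 16.7% against 15.0% of all genes, a share near the background. They were Hspa9 (0.59 ± 0.12) and Hscb (0.62 ± 0.17), chaperones of cluster transfer, and Bola3 (0.70 ± 0.22), a late assembly factor, with limma adjusted p of 0.0021, 0.0134 and 0.0348. Lyrm4, a partner of the cysteine desulphurase, was lower in Trem2-/-5XFAD than in 5XFAD by 0.47 on the log2 scale (limma adjusted p = 0.0262).

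Of 14 targets of NRF2, the antioxidant factor that also drives Hmox1, 5 rose and 0 fell in 5XFAD vs WT by limma, 35.7% against 15.0% of all genes. Txnrd1, which reduces thioredoxin, rose by 1.03 ± 0.19, Tkt of the pentose phosphate pathway by 0.72 ± 0.12 and Sqstm1, an autophagy receptor, by 0.68 ± 0.13 (limma adjusted p = 0.000473, 0.000205 and 0.00118). Hmox1 did not pass in that comparison. In Trem2-/-5XFAD vs 5XFAD, Tkt and Slc7a11, the cystine carrier, fell by 0.48 ± 0.11 and 1.03 ± 0.27 (limma adjusted p = 0.00714 and 0.0193), and Osgin1 rose by 0.59 ± 0.17 (limma adjusted p = 0.039).

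The 28 differences of named genes of the longer list were refitted in every other setting and with each array left out, an addition made after their values were seen. All kept their sign, and 12 kept their call throughout. These were Hfe, Slc39a14, Hif1a, Tspo, Alas1, Slc46a1, Hspa9, Tkt, Txnrd1 and Sqstm1 in 5XFAD vs WT, and Hif1a in Trem2-/-5XFAD vs 5XFAD and in Trem2-/-5XFAD vs Trem2-/-. The other 16 lost it in at least 1 setting, and 10 of them also with 1 array left out. Hif1a in the interaction lost its call without the arrays highest in salivary gland markers (-0.62, limma adjusted p = 0.0837), as did Tspo in Trem2-/-5XFAD vs 5XFAD (-0.61, limma adjusted p = 0.0606). Bola3 fell to 0.28 and Hscb to 0.38 in 5XFAD vs WT in that setting (limma adjusted p = 0.512 and 0.336). With 1 array left out in 5XFAD vs WT, calls were lost for Hscb without WT 1, for Bola3 without WT 1, WT 2, WT 4, 5XFAD 1 or 5XFAD 3, for Pcbp2 without WT 2, WT 3, 5XFAD 1 or 5XFAD 2, and for Snx3 without WT 1, WT 3, WT 4, 5XFAD 1, 5XFAD 2 or 5XFAD 3 (highest limma adjusted p = 0.128, for Bola3). In Trem2-/-5XFAD vs 5XFAD they were lost for Slc7a11 without 5XFAD 2 or 5XFAD 3, for Alas1 and Lyrm4 without any one of 5 arrays each, and for Osgin1 without any one of 7 (highest limma adjusted p = 0.122, for Osgin1). Cd163 lost its call without any one of 6 arrays in Trem2-/- vs WT (0.94 to 1.21) and of 7 in Trem2-/-5XFAD vs Trem2-/- (-0.94 to -0.68).

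**Figure D4:**
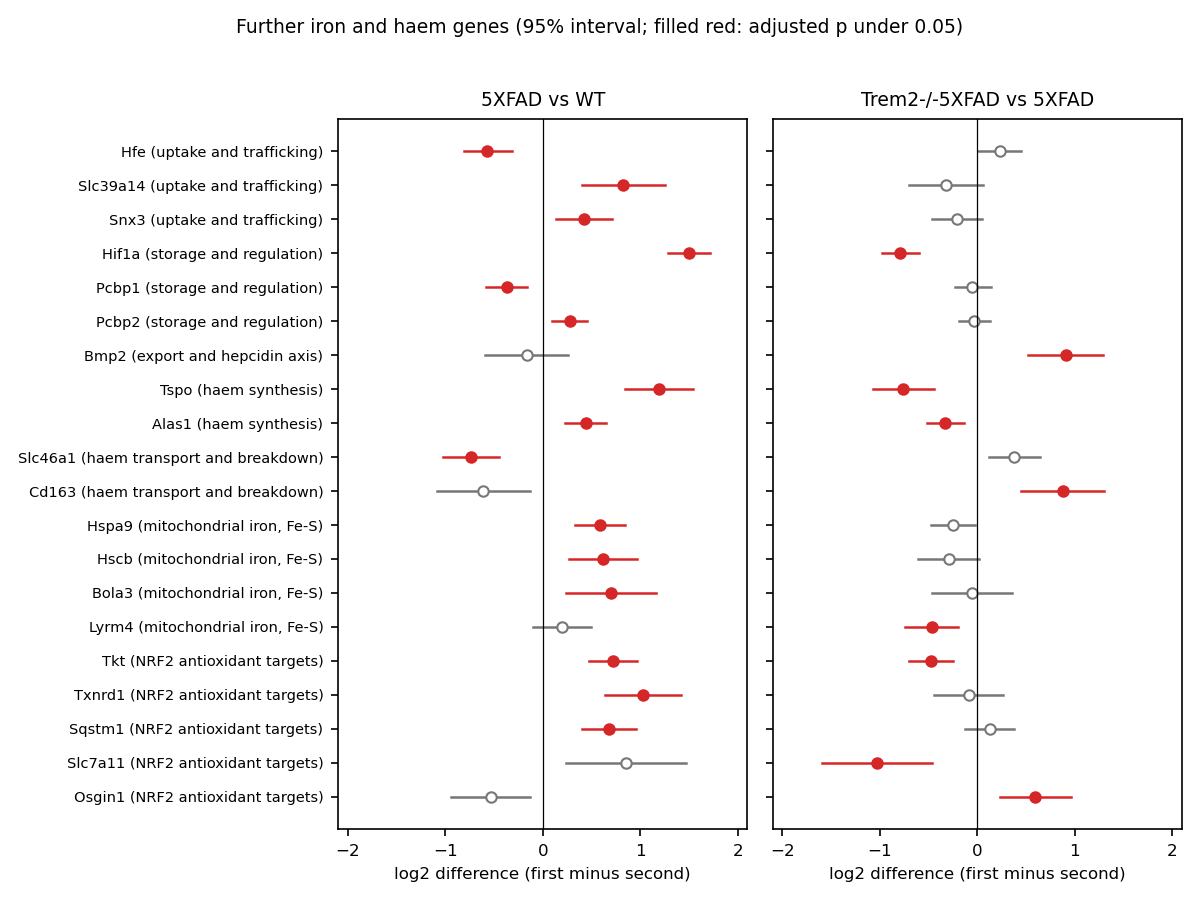
Log2 differences (horizontal axis, points with 95% intervals) of the named genes of the longer list, with their role in brackets, in 5XFAD vs WT (left) and Trem2-/-5XFAD vs 5XFAD (right); filled red points have a limma adjusted p under 0.05. Both panels share the 5XFAD arrays. Hif1a lies at 1.50 on the left and -0.79 on the right.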

How the data were processed

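The authors deposited a table of linear intensities, 20 arrays by 24679 probe sets. Its summary and normalization methods: not given in the sources used here. Values were taken as log2(intensity + 1), which understates folds of dim genes. The probe set with the highest mean that names a gene alone stood for it. Genes above their array's 40th percentile (4.16 to 4.34 on the log2 scale) in at least 4 assigned arrays were tested. One limma 3.58.1 model (R 4.3.3) covered the 19 assigned arrays (15 residual degrees of freedom), with Benjamini-Hochberg adjustment over 12728 genes. The fit was tested on simulated data. The number of arrays limits the precision.

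The genes, the marker lists and the longer list (up to 3 called genes with the smallest p named per role and comparison) were chosen with earlier results of these data known. Border macrophage and neutrophil markers, the sex signal, arrays left out, filters and normalization were varied as alternatives. The F test's alternatives, the second Ftl1 probe set and the longer list's alternatives were added after seeing the data. A probe set number's neighbours are the 15 named probe sets on each side.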

Additional observations from a re-analysis of the deposited data

Results flagged for a closer look

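Slc11a2 was 7.27 in 5XFAD 4, against 6.97 to 7.05 on the other 5XFAD arrays, and 7.69 in Trem2-/-5XFAD 4, against 7.02 to 7.22 on the other arrays of that group. Ireb2 was 6.66 in 5XFAD 1, against 6.98 to 7.11 on the other 5XFAD arrays. Each lies far from the rest of its group by Dixon's 95% criterion. The criterion was applied to 36 groups of values and picked out these 3, and chance alone does so in about 1 group of 20.

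The change of Slc40a1 with 5XFAD differed between mice without and with Trem2, by 1.27 ± 0.32 (limma adjusted p = 0.0342). The change was -1.68 with Trem2 and -0.42 without it. With 1 array left out the call was lost for 12 of the 19 arrays (limma adjusted p up to 0.0804).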

How the results depend on the processing

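Called differences of the 9 genes kept their sign under every setting tried. Of 536 values from other settings, 498 kept direction and side of the threshold, 11 lost the call, 4 gained it and 23 uncalled ones changed sign. Of 855 values with 1 array left out, 815 kept both, 23 lost the call, 3 gained it and 14 uncalled ones changed sign. The calls of Slc40a1 in 5XFAD vs WT (-1.83 to -1.43) and in Trem2-/-5XFAD vs 5XFAD (1.09 to 1.44) held in all settings. The cause of the changes below was not tested.

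Of 25 same-number pairs of arrays across groups, 3 had deviations correlated above 0.1 (range -0.10 to 0.17). The pairs of WT with 5XFAD read 0.10, 0.16, 0.09 and 0.17 for numbers 1 to 4, and Trem2-/- 4 with 5XFAD 4 read 0.14. The labels state no pairing, and whether equal numbers share a source of spread was not tested. With the replicate number as a block, Hmox1 in Trem2-/- vs WT stayed at 1.06 but lost its call (limma adjusted p = 0.057). That left 0 of the 9 genes called in Trem2-/- vs WT and 38 of all genes against 78. Trem2-/-5XFAD vs Trem2-/- gave 183 of all genes against 278, and Ftl1 turned to 0.02 there.

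The number of the 9 genes called in 5XFAD vs WT fell to 1 with the sex signal as a covariate (1 to 4 with 1 array left out). In Trem2-/- vs WT it was 0 in the model of 2 groups, with the conflicting array in WT, and with border macrophage or neutrophil markers as covariates (0 to 2 with 1 array left out). In the interaction it was 0 to 1 with 1 array left out. The F test called 2 with the sex signal and 2 with neutrophil markers as a covariate (2 to 4 with 1 array left out). All genes called in Trem2-/- vs WT numbered 11 in the model of 2 groups, 26 with the conflicting array in WT, 26 and 29 with border macrophage and neutrophil markers, and 271 without the 4 arrays highest in salivary gland markers. In Trem2-/-5XFAD vs 5XFAD they numbered 579 without those arrays and 402 with border macrophage markers, against 977. In Trem2-/-5XFAD vs Trem2-/- they numbered 160 with the sex signal and 171 with border macrophage markers.

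Uncalled differences changed sign as follows. With the sex signal, Ftl1 turned to -0.07 and Tfrc to -0.01 in Trem2-/-5XFAD vs 5XFAD, and Tfrc to -0.34 in Trem2-/-5XFAD vs Trem2-/-. Without the 4 arrays highest in salivary gland markers, Aco1 turned to -0.15 in 5XFAD vs WT, -0.07 in Trem2-/- vs WT and 0.03 in the interaction, Tfrc to -0.06 in Trem2-/-5XFAD vs 5XFAD and Slc40a1 to -0.09 in Trem2-/- vs WT. With border macrophage markers, Ftl1, Tfrc and Hmox1 turned to -0.13, -0.20 and -0.17 in Trem2-/-5XFAD vs 5XFAD, Slc40a1 and Ireb2 to -0.02 and -0.04 in Trem2-/- vs WT, and Ftl1 and Ireb2 to 0.05 and 0.01 in Trem2-/-5XFAD vs Trem2-/-. With neutrophil markers, Ftl1 and Tfrc turned to -0.01 and -0.12 in Trem2-/-5XFAD vs 5XFAD, and Tfrc to -0.03 in Trem2-/-5XFAD vs Trem2-/-. A second quantile normalization gave 0.02 for Fth1 in Trem2-/- vs WT and -0.02 for Tfrc in Trem2-/-5XFAD vs Trem2-/-. The conflicting array gave Slc40a1 -0.02 in Trem2-/- vs WT when put in WT, and Tfrc 0 in Trem2-/-5XFAD vs Trem2-/- when put in Trem2-/-.

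With 1 array left out, the ranges of those that changed sign were -0.01 to 0.13 for Aco1 in 5XFAD vs WT, -0.02 to 0.08 for Ftl1 and -0.04 to 0.35 for Tfrc in Trem2-/-5XFAD vs 5XFAD, -0.12 to 0.16 for Slc40a1 in Trem2-/- vs WT, and -0.11 to 0.08 for Ftl1 and -0.15 to 0.10 for Tfrc in Trem2-/-5XFAD vs Trem2-/-. With 4 to 6 arrays a group, small differences cannot be seen.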

Other observations

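On the array whose title says WT and whose genotype label says Trem2-/-, Trem2 read 11.08. The WT arrays read 11.14 to 11.39 and the Trem2-/- arrays 6.84 to 7.02, so its Trem2 level was that of mice with Trem2. On the array with conflicting labels Slc40a1 was 7.66, Tfrc 5.91, Slc11a2 6.63, Fth1 12.46, Ftl1 8.07, Ncoa4 8.31, Hmox1 10.47, Ireb2 6.59 and Aco1 6.48, all as log2(intensity + 1).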
